A study of Mus musculus with 11 samples.

Results

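Hyaluronan is a long, unsulfated sugar polymer of the extracellular matrix, and the 9 genes described here make it, hold it in the matrix, bind it at the cell surface or cut it. The members are the genes of these symbols, and the set was put together with earlier results of these data known. Has1, Has2 and Has3 encode the synthases, Tnfaip6, Ptx3 and Vcan encode secreted proteins of the hyaluronan matrix, Cd44 encodes the main cell surface receptor, and Hyal1 and Hyal2 encode hyaluronidases. Each had 1 row in the count table of 48709 genes, and all 9 passed the filter on low counts that left 31999 genes for testing. Most of them stood at quite different levels in cells fixed inside the muscle and in cells fixed after they had been isolated: Cd44, Has1, Tnfaip6, Ptx3 and Vcan were 5.09-fold to 62.3-fold higher in cells fixed straight after isolation, and the counts of Hyal1, which overlap those of its neighbours, were 4.67-fold lower. The highest of these, for Ptx3, rests on a T0 level near background.

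Hyaluronan synthases sit in the plasma membrane, join UDP-glucuronic acid and UDP-N-acetylglucosamine into the growing chain and push it out of the cell. Outside, TSG-6 (the product of Tnfaip6) attaches heavy chains of the inter-alpha-trypsin inhibitor family to the polymer, pentraxin 3 (Ptx3) holds such heavy chains together, and the proteoglycan versican (Vcan) binds along the chain. CD44 ties the coat to the cell and, through adaptor proteins, to the actin cytoskeleton, while HYAL2 at the cell surface and HYAL1 in the lysosome degrade the polymer. In skeletal muscle, hyaluronan is known as part of the transient matrix that forms around muscle stem cells after injury.

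The promoters of the 4 genes with the highest fold changes between isolated and in situ fixed cells are shown here, so that the letters upstream of genes that moved together can be read side by side. They come from RefSeq (GRCm38.p6), which had an entry for 7 of the 9 genes, with none for Has2 and Has3. Each runs 5′ to 3′ on the gene's strand and ends before the first annotated base of the gene in GENCODE vM21. They cover chr17:17855206-17855438 (minus strand, 233 bases) for Has1, chr2:52037863-52038008 (plus strand, 146 bases) for Tnfaip6, chr2:102901666-102901915 (minus strand, 250 bases) for Cd44 and chr3:66219637-66219886 (plus strand, 250 bases) for Ptx3. Capitals mark matches to motifs of factors that respond early to stimuli.
Has1: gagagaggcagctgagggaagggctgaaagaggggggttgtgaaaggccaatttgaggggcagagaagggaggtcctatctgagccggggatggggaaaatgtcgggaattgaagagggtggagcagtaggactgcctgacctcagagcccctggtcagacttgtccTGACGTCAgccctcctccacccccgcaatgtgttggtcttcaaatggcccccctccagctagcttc
Tnfaip6: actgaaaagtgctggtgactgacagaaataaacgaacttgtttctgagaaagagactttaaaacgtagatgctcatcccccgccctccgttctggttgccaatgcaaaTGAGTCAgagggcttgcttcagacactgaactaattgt
Cd44: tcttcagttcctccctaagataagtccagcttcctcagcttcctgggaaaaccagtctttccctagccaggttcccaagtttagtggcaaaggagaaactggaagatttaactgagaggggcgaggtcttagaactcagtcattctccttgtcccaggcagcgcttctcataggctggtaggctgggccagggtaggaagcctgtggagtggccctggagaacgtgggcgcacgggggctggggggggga
Ptx3: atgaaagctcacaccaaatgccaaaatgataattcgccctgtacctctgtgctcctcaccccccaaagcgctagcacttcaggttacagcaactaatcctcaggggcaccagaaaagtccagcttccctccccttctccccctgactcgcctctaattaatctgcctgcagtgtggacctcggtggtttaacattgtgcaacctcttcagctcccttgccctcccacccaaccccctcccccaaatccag
4 motifs were searched on both strands: AP-1 (TGANTCA), the cyclic AMP response element (CRE, TGACGTCA), NF-kB and CArG, the site of serum response factor. The letters of the AP-1 and CRE motifs do not overlap in any match shown. The Has1 stretch held 1 CRE match, whose first base lies at −83 from the RefSeq start, and 1.62% of 27025 promoter windows of 250 bases hold one. The Tnfaip6 stretch held 1 AP-1 match at −142, a motif that 6.87% of such windows hold. Cd44 and Ptx3 had no match to any of the 4 motifs in these letters, and neither had Vcan or Hyal1, while the window of Hyal2 held 1 NF-kB match at −238, within the annotated gene. NF-kB and CArG motifs are in 3.75 and 1.4% of all windows. A match describes the letters only and does not show that a factor binds.

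Expression was measured by RNA sequencing of skeletal muscle stem cells (satellite cells), the resident stem cells that repair muscle, from Tg:Pax7-nGFP mice on a C57BL/6 background, sorted by FACS from pectoral, forelimb and hindlimb muscles. The transgene puts a nuclear green fluorescent protein under Pax7, so a sorted cell is one in which that promoter has been active, and every group carries it. In T0 the muscles were fixed with 0.5% paraformaldehyde for 1 h at 4 °C before the cells were taken out. T3 cells were isolated first and fixed with 0.5% paraformaldehyde for 30 min on ice. For T5 an incubation of 2 h at 37 °C was added, which the protocol text places in DMEM before the isolation and the design text after it. Fixation of muscle or of sorted cells goes with the isolation and cannot be told apart from it. The mice's age and the number of animals per library are not stated.

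There were 3 T0, 4 T3 and 4 T5 libraries, with total counts of 49078859 to 67251946, 52632553 to 72638711 and 61837170 to 102347035. T5 libraries that share a letter (A or B) were added up for testing, which gives n = 3, n = 4 and n = 2. Libraries sharing a letter were not always the most alike. The squared difference between 2 libraries, over that expected from sampling (median over genes), was 48.79 for letter A and 14.78 for letter B. For T5 pairs across letters it ran from 11 to 35.34. A T5 SD is over the 2 letter means and does not show the spread within a letter. Nothing says that the libraries of a group come from separate animals, so each p-value is set against the spread of these libraries alone, and that spread may be technical. T0 replicate 3 stood apart from the other T0 libraries, and results that change without it are given both ways. The muscle stem cell markers were present in every library. Of 9 such genes, 5 were lower in T3 than in T0 and 2, Sdc4 (log2 2.65) and Vcam1 (0.60), were higher. Counts scaled to library size (CPM) of the 9 genes summed to 5430 to 8140 in the T0 libraries, against 2010 to 2430 in those of T3 and 1570 to 1750 in those of T5, and Pax7, the most abundant of them in T0, stood at 3190 to 4540, 247 to 399 and 259 to 395 CPM. In bulk RNA, fewer cells of a type and less RNA per cell cannot be told apart. Markers of each other cell type had a lower sum than the muscle stem cell markers in every group, and none was at 0 in any library. Single genes were not always lower: Des, of the pericyte and smooth muscle list, stood at 424 to 532 CPM in T3. The sums and calls are given after the gene results.

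Of the 9 hyaluronan genes, 6 were higher and 1 was lower in T3 than in T0, at a Benjamini-Hochberg adjusted p under 0.05 in edgeR's quasi-likelihood test over all genes tested. Over all 31999 genes, 15.0% were higher and 22.9% lower by the same rule. The median log2 fold change was 2.35 over the 9 genes and 0.05 over all genes. In T5 against T0, 5 were higher and 2 lower, where 13.2% of all genes were higher and 22.5% lower, with medians of 2.03 and 0.18. These comparisons share the T0 libraries and are not independent. Between T5 and T3 no member was called by edgeR, where 1.28% of all genes were higher and 0.888% lower. At an unadjusted p under 0.05 there were 2 members, Tnfaip6 and Ptx3, where 12.8% of all genes had such a p. DESeq2 called 1 member, Ptx3, lower, where it called 2.44% of all genes lower.

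**Figure D1:**
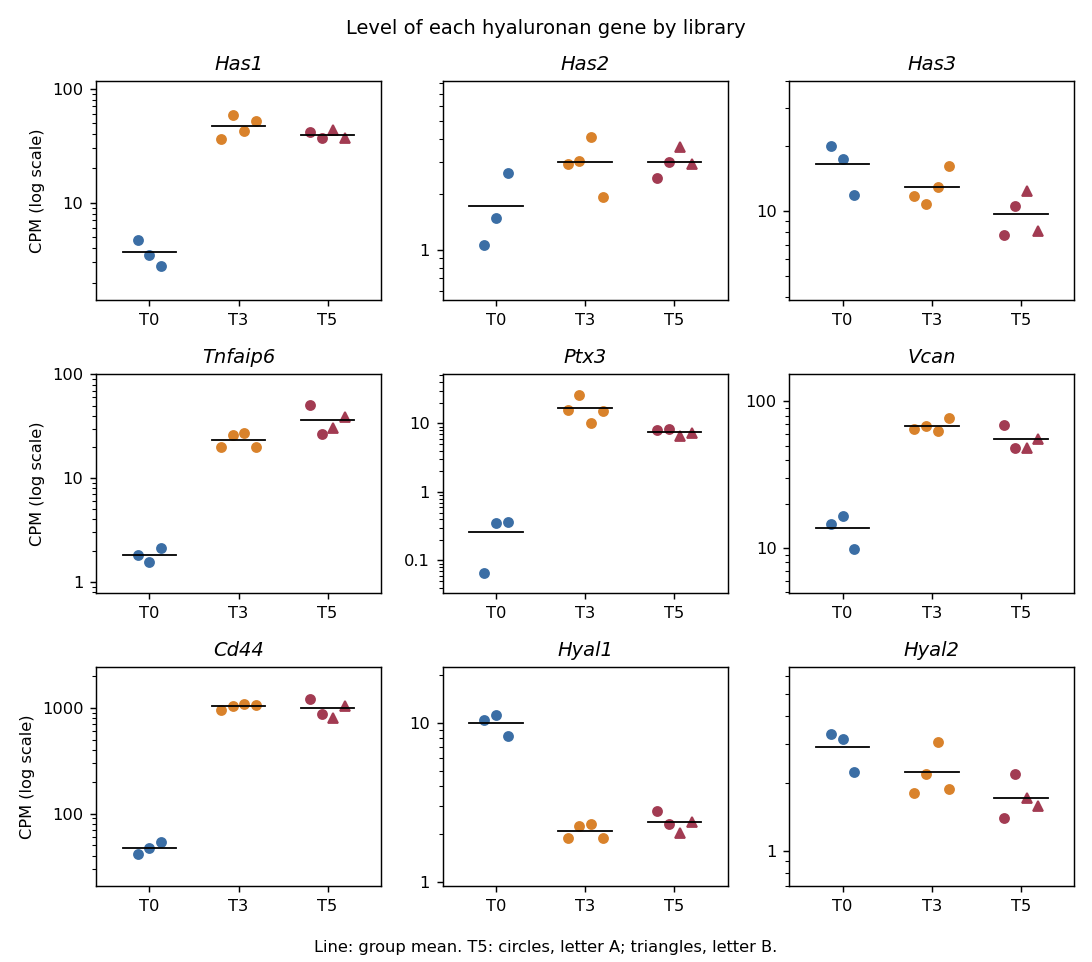
CPM on a log scale in every library of T0 (3 libraries), T3 (4) and T5 (4, with circles for letter A and triangles for letter B), with a line at the group mean. For Has1, Tnfaip6, Ptx3, Vcan and Cd44 all T3 and T5 libraries lie above all T0 libraries, for Hyal1 all lie below, and for Has2, Has3 and Hyal2 T0 and T3 libraries overlap.

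The plot of levels by library shows most of the change between T0 and T3. Of the synthases, Has1 rose 13.2-fold, Has2 was near the background of the libraries in every group and Has3 gave way to Has1 as the most abundant. Has1 (ENSMUSG00000003665.6, chr17:17843323-17855205, minus strand, GRCm38) stood at 4.76, 3.51 and 2.79 CPM in the T0 libraries, at 36.5, 58.4, 42.6 and 52.5 CPM in T3, and at 41.6 and 36.8 (letter A) and 43.4 and 36.7 CPM (letter B) in T5. Every T3 and T5 library was far above every T0 library, and T3 and T5 overlapped. The group means were 3.69 ± 0.997 CPM (SD, n = 3), 47.5 ± 9.82 (n = 4) and 39.6 ± 0.58 (n = 2). Against T0 this was a log2 fold change of 3.73 ± 0.26 (standard error, SE; 13.2-fold, edgeR adjusted p = 3.15e-10) in T3 and 3.45 ± 0.27 (11-fold, adjusted p = 4.01e-09) in T5. T5 differed from T3 by −0.27 ± 0.25 (edgeR adjusted p = 0.671), an interval of 2 SE from −0.77 to 0.23.

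Has2 encodes the synthase that makes very long chains and is needed for heart development in the embryo. It (ENSMUSG00000022367.7, chr15:56665627-56694539, minus strand) stood at 1.06, 1.48 and 2.61 CPM in T0, at 2.91, 3.02, 4.10 and 1.92 CPM in T3, and at 2.44, 2.98, 3.61 and 2.92 CPM in T5. The highest T0 library was above the lowest T3 and T5 libraries, so the groups overlapped. Reads also fall on genes that are silent in these cells, and per kb of gene length Has2 was at 2.15 to 3.42 times that background in the T0 libraries, 3.04 to 5.8 times in those of T3 and 3.23 to 4.46 times in those of T5. The test called Has2 higher in T3 than in T0 (log2 0.81 ± 0.29, 1.76-fold, edgeR adjusted p = 0.0308). Leaving out any one of 4 libraries ended the call, with an adjusted p of 0.126 for T0 replicate 1, 0.12 for T0 replicate 2, 0.0528 for T3 replicate 2 and 0.124 for T3 replicate 3. Without T0 replicate 3 the Has2 value was 1.25. In T5 against T0 the log2 value was 0.80 ± 0.33 (edgeR adjusted p = 0.0682; 0.00517 without T0 replicate 3, 0.0378 with no filter on low counts and 0.0304 with the 4 T5 libraries as replicates), and in T5 against T3 it was −0.02 ± 0.32. The gene shares 4596 bp with the antisense transcript Has2os, whose mean levels in the 3 groups were 6.16, 5.64 and 6.85 CPM. The counts do not separate strands, so reads of these 2 genes cannot be told apart there.

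Has3, the third synthase, stood at 20.0, 17.5 and 11.9 CPM in T0, at 11.7, 10.8, 13.0 and 16.2 CPM in T3, and at 7.73, 10.6, 12.4 and 8.07 CPM in T5 (ENSMUSG00000031910.14, chr8:106870242-106884566, plus strand). The third T0 library lay among the T3 and T5 libraries, and the other two lay above all of them. T3 against T0 was not called (log2 −0.32 ± 0.22, edgeR adjusted p = 0.291), but leaving out T0 replicate 3 gave a call (−0.51, adjusted p = 0.0233), and with upper quartile scaling its value was 0.01. T5 against T0 was called lower (−0.74 ± 0.27, 1.67-fold lower, edgeR adjusted p = 0.0336). That call did not hold when T0 replicate 1 (adjusted p = 0.092), T0 replicate 2 (0.0934), letter A (0.292) or letter B (0.118) was left out, nor with upper quartile scaling (0.152) or with only T0 and T5 in the fit (0.08). Has3 shares 704 bp with Chtf8 on the other strand, which stood at 33.1, 26.0 and 17.4 CPM in the 3 groups and fell in T5 against T0 (log2 −0.91, adjusted p = 0.00714), so the Has3 value is uncertain.

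Per kb of exonic length, the make-up of the 3 synthases changed from mostly Has3 to mostly Has1. Has3 made up 60.1 to 70.9% of the summed CPM per kb of the synthases in the T0 libraries, 11.0 to 17.4% in T3 and 11.0 to 15.8% in T5. Has1 made up 20.0 to 23.7%, 75.8 to 84.3% and 77.4 to 83.7%, with no overlap between T0 and the other groups. The share of Has2 was 5.65 to 19.9%, 3.11 to 7.79% and 5.23 to 6.88%, and its highest value was that of T0 replicate 3. The counts also hold intron reads, and per kb of whole gene length Has3 made up 71.8 to 77.9% in T0 and 13.0 to 20.5% in T3, Has1 18.8 to 21.9% and 76.9 to 85.2%, and Has2 2.01 to 7.83% and 1.18 to 3.06%. Per exonic kb, the T0 libraries summed to 3.09 to 4.44 CPM per kb, the T3 libraries to 10.6 to 15.3 and the T5 libraries to 10.1 to 12.4.

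**Figure D2:**
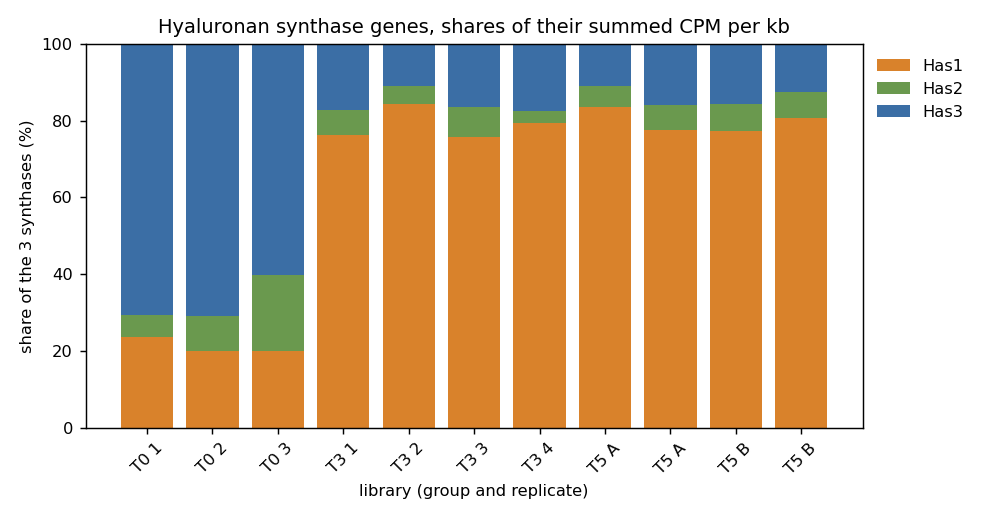
Share of each synthase gene in the summed CPM per kb of Has1, Has2 and Has3, as stacked bars from 0 to 100%, 1 bar per library. Has3 (blue) fills 60.1 to 70.9% of the T0 bars, and Has1 (orange) 75.8 to 84.3% of the T3 bars and 77.4 to 83.7% of the T5 bars.

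All 3 genes for secreted proteins of the hyaluronan matrix rose with isolation. Tnfaip6 (ENSMUSG00000053475.5, chr2:52038009-52056686, plus strand), which encodes the heavy-chain transferase TSG-6, stood at 1.82, 1.55 and 2.13 CPM in T0, at 19.9, 26.2, 27.5 and 20.0 CPM in T3, and at 50.7 and 26.5 (A) and 30.5 and 38.8 CPM (B) in T5. T0 was well below both other groups, and T5 lay above T3 except for 1 library of letter A that was within the T3 range. Means were 1.84 ± 0.29 (SD, n = 3), 23.4 ± 4.04 (n = 4) and 36.6 ± 2.79 CPM (n = 2). The log2 fold change was 3.70 ± 0.24 in T3 (13-fold, edgeR adjusted p = 1.61e-10) and 4.33 ± 0.26 in T5 against T0 (20.1-fold, adjusted p = 8.65e-11). T5 against T3 gave 0.63 ± 0.22 (1.55-fold), which was not called over all genes (edgeR adjusted p = 0.186). It was called without T0 replicate 3 (adjusted p = 0.0327) and with only T3 and T5 in the fit (0.024).

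Ptx3 went from the background of the libraries to a clear signal. Ptx3 (ENSMUSG00000027832.5, chr3:66219910-66225805, plus strand) had 3, 20 and 28 counts in the T0 libraries, or 0.066, 0.349 and 0.362 CPM, which is 0.66 to 3.11 times the background of silent genes. It stood at 15.6, 26.4, 9.98 and 15.1 CPM in T3 and at 7.89, 8.29, 6.47 and 7.34 CPM in T5. Every T5 library lay below every T3 library and above every T0 library. The log2 fold change was 5.96 ± 0.41 in T3 against T0 (62.3-fold, edgeR adjusted p = 3.15e-10) and 4.78 ± 0.42 in T5 against T0 (27.4-fold, adjusted p = 1.84e-08). With the expected background subtracted, these values were 6.72 and 5.57, so the size of the fold depends on what is taken as background in T0.

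The difference between T5 and T3, a log2 value of −1.19 ± 0.35 (2.28-fold lower), was not called for Ptx3 (edgeR adjusted p = 0.0859). It was called with DESeq2 (adjusted p = 0.0151), with no filter on low counts (0.00357), with the 4 T5 libraries as replicates (0.00696) and with only T3 and T5 in the fit (0.0271). It was also called without T0 replicate 1 (0.0103) or T3 replicate 3 (0.0375), and without T3 replicate 2, the highest T3 library, the value was −0.87. Ptx3 lies within an intron of Veph1 on the other strand, and reads in that stretch count for both genes. Without the reads counted for Ptx3, Veph1 had 377 to 1089 counts in the T0 libraries, 535 to 831 in T3 and 806 to 1433 in T5. That remainder overlapped between T0 and T3, while Ptx3 did not.

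Vcan (ENSMUSG00000021614.16, chr13:89655312-89742509, minus strand), which encodes the large proteoglycan versican, stood at 14.6, 16.6 and 9.85 CPM in T0, at 64.8, 68.2, 62.5 and 76.9 CPM in T3, and at 69.3, 48.0, 47.8 and 55.5 CPM in T5. T0 did not overlap either group, and 3 of the 4 T5 libraries lay below all T3 libraries. Means were 13.7 ± 3.48 (SD, n = 3), 68.1 ± 6.32 (n = 4) and 55.1 ± 4.96 CPM (n = 2), which gave a log2 fold change of 2.35 ± 0.22 in T3 (5.09-fold, edgeR adjusted p = 2.38e-08) and 2.03 ± 0.25 in T5 against T0 (4.07-fold, adjusted p = 1.25e-06). T5 against T3 was not called (−0.32 ± 0.24, edgeR adjusted p = 0.601). The antisense transcript Gm4117, which shares 3050 bp with it, moved the other way and fell by 1.42 on the log2 scale in T3 against T0 (adjusted p = 4.01e-06).

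The receptor gene Cd44 had the highest CPM, also per kb of exonic length, of the members in every group, though not in T0 per kb of whole gene length. Cd44 (ENSMUSG00000005087.17, chr2:102811141-102901665, minus strand) stood at 41.3, 47.7 and 53.7 CPM in T0, at 966, 1034, 1081 and 1070 CPM in T3, and at 1227, 873, 807 and 1050 CPM in T5. The T3 libraries were close to each other and inside the range of T5, and both groups were far above T0. Means were 47.6 ± 6.20 (SD, n = 3), 1038 ± 51.6 (n = 4) and 989 ± 85.9 CPM (n = 2). The log2 fold change was 4.48 ± 0.25 in T3 (22.3-fold, edgeR adjusted p = 1.96e-11) and 4.39 ± 0.26 in T5 against T0 (20.9-fold, adjusted p = 7.45e-11). T5 and T3 differed by −0.09 ± 0.23, an interval of 2 SE from −0.56 to 0.38. Per kb of exonic length, the mean level of Cd44 ranked 6369th of 31821 genes in T0, 294th in T3 and 360th in T5.

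Of the hyaluronidases, edgeR called Hyal1 lower in T3 and in T5 than in T0, and Hyal2 in neither. Hyal1 (ENSMUSG00000010051.15, chr9:107576927-107581710, plus strand), the lysosomal enzyme, stood at 10.4, 11.2 and 8.26 CPM in T0, at 1.90, 2.24, 2.31 and 1.88 CPM in T3, and at 2.81, 2.30, 2.04 and 2.36 CPM in T5. All T3 and T5 libraries lay below all T0 libraries. The log2 fold change was −2.22 ± 0.21 in T3 (4.67-fold lower, edgeR adjusted p = 2.34e-08) and −2.05 ± 0.27 in T5 against T0 (4.15-fold lower, adjusted p = 2.64e-06). The T5 and T3 values differed by 0.17 ± 0.24 (edgeR adjusted p = 0.775). Which gene of the locus fell cannot be told from these counts: Hyal1 shares 2824 bp, of which 1920 are exonic, with the N-acetyltransferase gene Naa80 on the same strand, and 893 bp with Hyal3, and it lies within the antisense transcript Gm16343. In T3 against T0, Naa80 had a log2 fold change of −2.17, Hyal3 of −1.72 and Gm16343 of −1.90, with adjusted p of 3.96e-08, 7.73e-07 and 1e-07.

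Hyal2, the hyaluronidase of the cell surface, stood at 3.3, 3.14 and 2.24 CPM in T0, at 1.80, 2.20, 3.06 and 1.88 CPM in T3, and at 1.39, 2.20, 1.73 and 1.59 CPM in T5 (ENSMUSG00000010047.12, chr9:107567945-107572779, plus strand). T0 and T3 overlapped, and every T5 library was below every T0 library. Neither T3 (log2 −0.33 ± 0.24, edgeR adjusted p = 0.329) nor T5 (−0.74 ± 0.29, adjusted p = 0.0547) was called against T0. The second was called lower with DESeq2's size factors (adjusted p = 0.0339), with DESeq2 (0.0287), with the 4 T5 libraries as replicates (0.0143) and without T0 replicate 3 (0.00992). Against T3, T5 gave −0.40 ± 0.28 (edgeR adjusted p = 0.571). Gm9917, an antisense transcript that shares 471 bp with Hyal2, was higher in T3 than in T0 (log2 0.69).

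**Figure D3:**
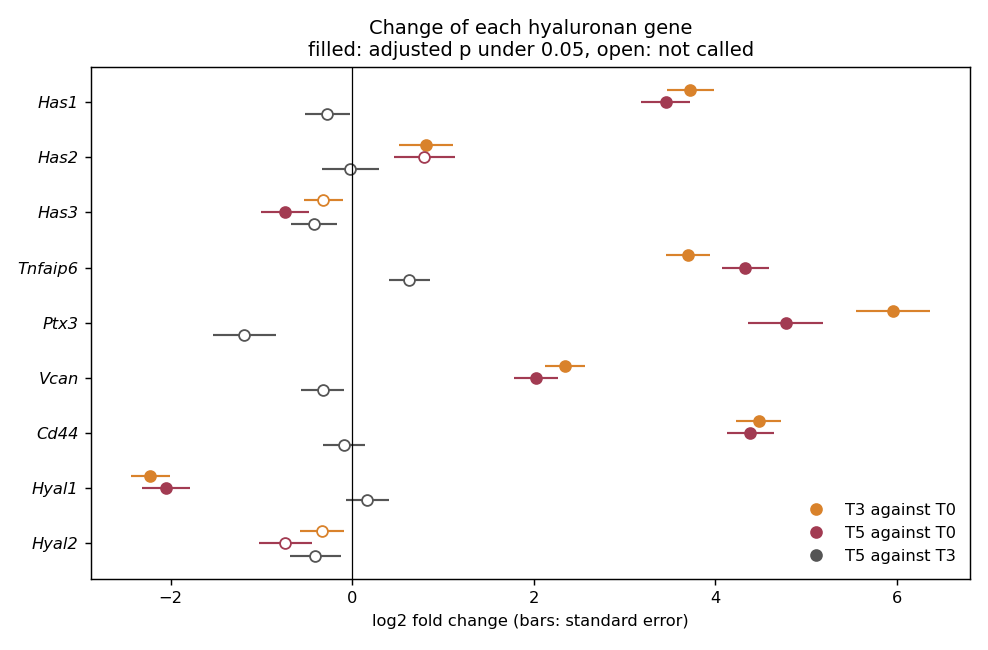
Log2 fold change of each of the 9 genes in T3 against T0 (orange), T5 against T0 (red) and T5 against T3 (grey), with the standard error as a bar and filled points for an adjusted p under 0.05. The orange and red points lie close together for Has1, Cd44, Vcan and Hyal1, from 3.73 and 3.45 for Has1 to −2.22 and −2.05 for Hyal1, and all grey points are open.

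The order of the members by level differed between the groups. In T0, per kb of exonic length, Cd44 led with 7.02 ± 0.914 CPM per kb (SD, n = 3), followed by Hyal1 (2.64 ± 0.403) and Has3 (2.58 ± 0.653), whose libraries overlapped. Tnfaip6 (1.07), Vcan (0.947), Hyal2 (0.879) and Has1 (0.816) came next, each overlapping the next in this order, then Has2 (0.406) and Ptx3 (0.0967). In T3, Cd44 led with 153 ± 7.62 CPM per kb (n = 4). Tnfaip6 (13.7), Has1 (10.5), Ptx3 (6.24) and Vcan (4.71) followed with libraries that overlapped from each to the next, then came Has3 (2.02), and Has2 (0.705), Hyal2 (0.679) and Hyal1 (0.551) overlapped at the end. T5 kept Cd44 (146), Tnfaip6 (21.4) and Has1 (8.77) in the first 3 places, ahead of Vcan (3.81), Ptx3 (2.79) and Has3 (1.52). Has2 (0.705), Hyal1 (0.629) and Hyal2 (0.524) came last, with libraries that overlapped from each to the next. The reads also cover introns, and per kb of whole gene length T0 was led by Hyal1 and Has3, with Cd44 at the fourth place, while Cd44 still led T3 and T5 with Has1 in the next place.

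Among the other genes of hyaluronan metabolism, 50 genes in 7 groups were tested, and 16 were higher, 6 lower and 28 not called in T3 against T0. For T5 against T0 these counts were the same in number, at 16, 6 and 28. For T5 against T3, 1 was higher, 1 lower and 48 not called. These counts, and those of the single lists, are to be read against the shares of all genes given above: 15.0% higher and 22.9% lower in T3 against T0, 13.2 and 22.5% in T5 against T0, and 1.28 and 0.888% in T5 against T3. The lists were assembled with earlier results of these data known. In 25 of the 50 the lowest library was under 5 times the background of silent genes, and 7 of those 25 were higher and none lower in T3 than in T0. That background itself was 0.0171, 0.0190 and 0.0264 CPM per kb in T0 replicates 1 to 3. It was 0.0217 to 0.0269 in the T3 libraries and 0.0230 to 0.0319 in those of T5. Its part in the calls near background was not tested for these genes.

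Of 7 genes that supply the UDP-sugars, 4 were higher in T3 than in T0, 3 were not called and none was lower. Uap1, which makes UDP-N-acetylglucosamine, rose from 27.8 ± 3.83 (SD, n = 3) to 168 ± 23.9 CPM (n = 4), a log2 fold change of 2.63 ± 0.22 (edgeR adjusted p = 4.43e-09), and stood at 117 ± 3.41 CPM in T5 (n = 2). Ugdh, the dehydrogenase that makes UDP-glucuronic acid, rose from 17.0 ± 2.12 to 72.3 ± 8.83 CPM (log2 2.12 ± 0.21, adjusted p = 3.35e-08). It was the only gene of the 50 that was lower in T5 than in T3, at 32.3 ± 0.71 CPM (−1.19 ± 0.23, edgeR adjusted p = 0.00472), and it remained above T0 (0.93, adjusted p = 0.0023). Gfpt2, which starts the hexosamine pathway, rose from 33.5 to 135 CPM in T3 and stood at 206 CPM in T5. Ugp2, which makes UDP-glucose, rose 1.69-fold, and Gfpt1, Gnpnat1 and Pgm3 were not called.

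Of 9 other genes for hyaluronan breakdown, 1 rose and 3 fell in T3 against T0. Cemip2, a cell surface hyaluronidase also called Tmem2, rose from 20.5 ± 2.34 to 40.8 ± 5.42 CPM (SD, n = 3 and 4; log2 1.03 ± 0.20, edgeR adjusted p = 2.13e-04). Hexa and Gusb, lysosomal exoglycosidases that trim the fragments, and Hyal3 fell. Hexa went from 23.3 ± 5.18 to 8.01 ± 1.03 CPM (−1.51 ± 0.21, adjusted p = 3.27e-06) and Gusb from 13.6 ± 4.03 to 6.85 ± 1.16 CPM (−0.95 ± 0.23). Hyal3 overlaps Hyal1, as described above. In T5 against T0, Cemip was called higher as well (log2 0.82, adjusted p = 0.0135), at 2.86 to 5.1 times background.

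For the partners and proteases of CD44, 4 of 10 were higher and 1 lower in T3 than in T0. Moesin (Msn), which links CD44 to actin, rose from 156 ± 15.2 to 597 ± 58.4 CPM (SD, n = 3 and 4; log2 1.97 ± 0.21, edgeR adjusted p = 1.35e-07) and ezrin (Ezr) from 13.2 to 21.1 CPM, while radixin (Rdx) was not called. Of the sheddases, Adam17 was higher (log2 0.54, adjusted p = 0.0397) and Adam10 lower, at 97.3 ± 15.7 and 64.4 ± 5.05 CPM (−0.56 ± 0.19, adjusted p = 0.0227). Spp1, which encodes the CD44 ligand osteopontin, was higher but its mean levels in T0 and T3 were only 0.483 and 0.987 CPM.

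Several of the remaining calls were of genes at low levels. Of 7 receptors and uptake genes other than Cd44, Stab1 (log2 0.79, edgeR adjusted p = 0.00663), Lyve1 and Tlr2 were higher in T3 than in T0, all under 6 CPM on average. In T5 against T0, 4 of the 7 were higher: Lyve1, Hmmr, Tlr2 and Tlr4. Tlr4 was not at a low level, with means of 39.3, 40.9 and 64.4 CPM in T0, T3 and T5 (T5 against T0 log2 0.74 ± 0.24, edgeR adjusted p = 0.0194). Stab2, at 32.8, 36.8 and 32.2 CPM, was not called in any comparison. Hmmr, a receptor that is also a mitotic spindle protein, was the only gene of the 50 higher in T5 than in T3, at 1.43 ± 0.0581 and 3.19 ± 0.481 CPM (SD, n = 4 and 2; log2 1.14 ± 0.26, adjusted p = 0.0162), at 1.74 to 5.89 times background. Of 7 other matrix proteoglycans and link proteins, Bcan and Hapln3 were called higher in T3 than in T0, both below 2 CPM on average. Among 6 genes of heavy-chain transfer, Itih5, which encodes an inter-alpha-trypsin inhibitor heavy chain, fell from 331 ± 155 to 152 ± 36.4 CPM (−1.09 ± 0.27, adjusted p = 0.00239), and Itih4 was called higher at 0.588 and 1.48 CPM. Of 4 genes of intracellular or other binding proteins, C1qbp was higher (log2 0.71, adjusted p = 0.0249) and Habp4 lower, at 35.1 ± 8.81 and 13.6 ± 2.85 CPM (−1.34 ± 0.22, adjusted p = 2.8e-05).

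**Figure D4:**
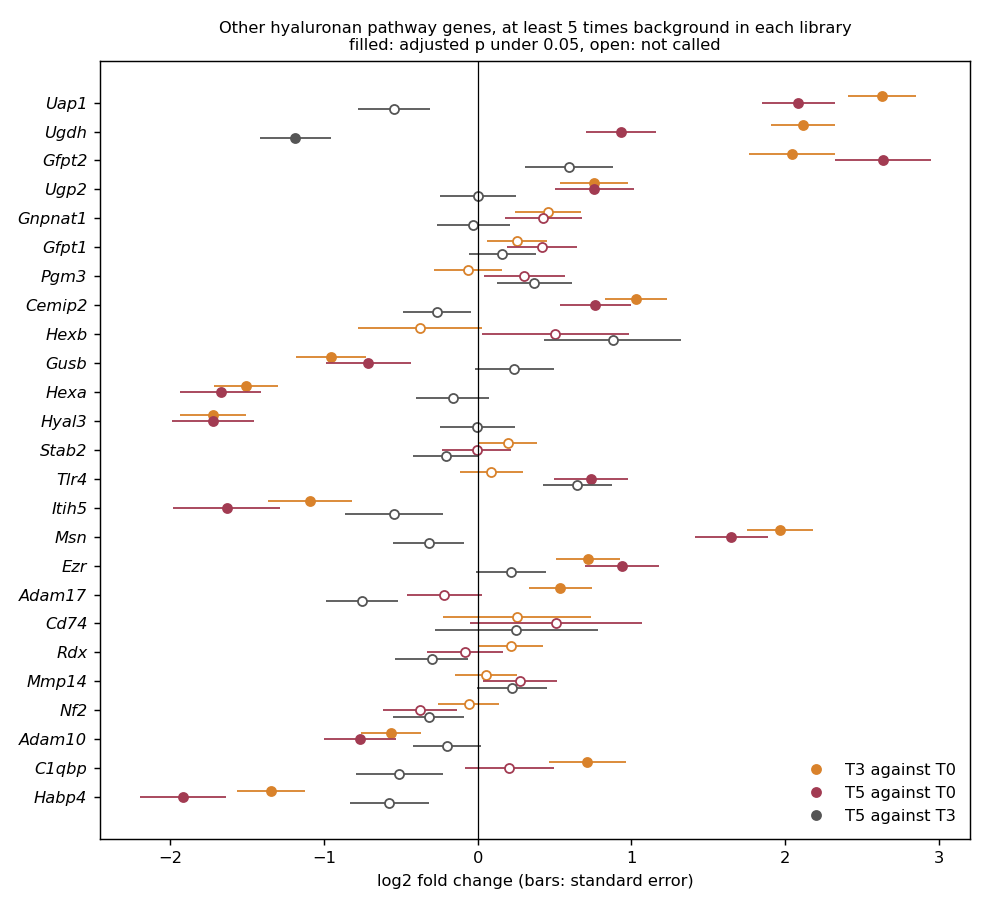
Log2 fold change, with the standard error as a bar, of the 25 other pathway genes whose lowest library was at least 5 times background, in T3 against T0 (orange), T5 against T0 (red) and T5 against T3 (grey), with filled points for an adjusted p under 0.05. Uap1, Ugdh, Gfpt2 and Msn lie furthest right in T3 against T0, at 1.97 to 2.63, and the grey point of Ugdh, at −1.19, is the only filled one of its kind.

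Markers of other cell types moved in part with isolation. A sum can rest largely on 1 gene of its list. Of 10 markers of fibro-adipogenic progenitors and fibroblasts, 2 were higher and 2 lower in T3 than in T0, and their sums in T0, T3 and T5 were 483 to 688, 266 to 469 and 210 to 270 CPM. The largest part was Gsn, at 352 to 491, 146 to 305 and 123 to 144 CPM, while Pdgfra stood at 2.26 to 4.85 CPM in T0 and was not called. For monocytes and macrophages, 4 of 11 were higher and none lower, with sums of 26.7 to 56.3, 41.2 to 62.6 and 41.8 to 58.0 CPM. For endothelial cells 4 of 8 were higher, and 4 were lower again in T5 than in T3, with sums of 256 to 301, 443 to 543 and 233 to 302 CPM. For pericytes and smooth muscle 2 of 7 were higher (Des and Rgs5) and 2 lower (Acta2 and Kcnj8), with sums of 326 to 382, 520 to 643 and 413 to 460 CPM. The largest part of these was Des, at 168 to 252, 424 to 532 and 306 to 358 CPM. Of 7 myofibre markers 6 were higher and 1, Actn3, lower, with sums of 67.6 to 89.2, 71.2 to 99.7 and 45.1 to 59.5 CPM. For Schwann cells 2 of 5 were higher and 1 lower (sums of 33.8 to 36.1, 41.1 to 49.6 and 31.4 to 33.2 CPM), and for tenocytes 1 of 4 was higher (16.6 to 18.1, 16.5 to 25.9 and 19.7 to 22.3 CPM). No marker of neutrophils (6) or lymphocytes (6, of which 5 were tested) was called, and their sums stayed at 12.3 CPM or below. None of these markers was at 0 in any library. The part of these cells in the changes of the hyaluronan genes was not tested.

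The genes whose levels followed each member most closely were taken from 11428 or 11429 well expressed genes, by Pearson's r of log2 CPM over the 9 replicates. The replicates share their 3 groups, so any gene with a step between T0 and the other groups scores high, and the values are a description. Has1 was most like Zdhhc18 (r = 0.9985), Stk40 (0.9983) and Tuba1c (0.998). Cd44 was most like Gadd45b (0.9984), Tnfrsf12a (0.998) and Ier3 (0.9978). For Tnfaip6 these genes were Plaur (0.9974), Shb (0.996) and Slc41a2 (0.9958), and for Vcan they were Rap1b (0.9972), Luzp1 (0.9966) and Odc1 (0.9965). Ptx3 was followed by Trim30d (0.9945), Rgcc (0.9939) and Ubash3b (0.9916), and Hyal1 by Ube2d1 (0.9967), Crocc (0.9958) and Nfib (0.9956). The closest were less close for Has2 (Nrxn2, 0.9852) and Has3 (Vezt, 0.9741).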

How the data were processed

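The values the authors deposited are raw read counts, whole numbers for 48709 genes in 11 libraries. Per the submitters' processing notes, the tools were featureCounts 1.4.6-p3, STAR 2.5.0a, DESeq2 1.12.3 and R 3.3.1, and the build was GRCm38. The annotation release, strand setting and filters are not given in the sources used here. Total RNA was extracted with a kit for fixed tissue and made into directional libraries of 65-bp single-end reads, per the labels' protocols. The counts nevertheless hold both strands and introns: Tsix, antisense to Xist, had 1.004 to 1.014 times its count in every library. Overlapping genes therefore share reads.

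Column names gave each column its group. T0 and T3 replicates carry the column numbers, whose relation to the letters in the titles is not known. Gene IDs were matched to GENCODE vM21, where 48349 had an entry and 360 had none. From the counts, edgeR 4.0.16 (R 4.3.3) was run after filterByExpr and TMM scaling, with all 3 groups in 1 model and the two-sided quasi-likelihood F test. A gene was called where its p, adjusted by Benjamini-Hochberg over 31999 genes, was under 0.05. The SE is the size of the log2 change over the square root of F. The code was tested on simulated data. CPM values use TMM-corrected library sizes. Means ± SD are over 3 T0 libraries, 4 T3 libraries and 2 T5 letters, each the mean of 2 libraries. Background is the level per kb of gene length in 1730 receptor and defensin genes taken to be silent.

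All 9 members are named. From the other genes, the text names, for each list and direction, the called gene of smallest p, and further genes of the lists chosen after their values were seen. The members and lists were chosen with earlier results of these data known. Other scalings (DESeq2's size factors, upper quartile), DESeq2 1.42.0, no filter, 4 T5 libraries as replicates, fits of 2 groups, a replicate block and leaving out each replicate were tried, and background subtraction was added after seeing the data. The genes most like Hyal2 in level are not reported here.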

Additional observations from a re-analysis of the deposited data

How the results depend on the processing

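Over 441 combinations of member, contrast and setting, 410 kept their direction and side of the threshold. Of the 31 that changed, 23 concerned Has2, Has3 or Hyal2 and 8 the T5 against T3 values of Ptx3 or Tnfaip6. Leaving out single replicates gave 5 to 6 members higher in T3 than in T0. The number of members lower in T3 than in T0 ranged from 1 to 2 when single replicates were left out. For T5 against T3 the members higher were 1 with only 2 groups in the fit, and 0 to 1 leaving out replicates. The members lower were 1 with DESeq2, with no filter, with 4 T5 libraries and with 2 groups, and 0 to 1 leaving out replicates. For T5 against T0 the members lower were 1 with upper quartile factors and with 2 groups, 3 with DESeq2's size factors, DESeq2 and 4 T5 libraries, and 1 to 3 leaving out replicates, and the members higher were 6 with no filter and with 4 T5 libraries. Without T0 replicate 3, T5 against T0 had 6 members higher and 3 lower. The causes were not tested.

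The sign turned for Has3 in T3 against T0 with upper quartile factors (0.0116), and for Has2 in T5 against T3 with upper quartile factors (0.033), with 2 groups (0.00648), without T3 replicate 3 and without letter A, with −0.187 to 0.177 over all left-out replicates. None of these values was called. With a replicate block on column numbers 1 to 3 of T0 and T3, 6 members were higher and 1 lower, as without it. Whether equal numbers pair the libraries is not settled, as deviations of equal numbers correlated at −0.17, 0.48 and 0.37. T0 numbers 2 and 3 were closest to the T3 library of the same number, for number 3 with T3 number 1 near it (0.30). T0 number 1 was closest to T3 number 4 (0.57). Over all genes the block gave 5808 higher and 4997 lower calls, against 4807 and 7332. No paired analysis was possible for T5 because its columns share no number with the others. Per kb of whole gene length, 2 members in T0, 1 in T3 and 1 in T5 kept their place in the order of levels.

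With upper quartile factors the median log2 value over all genes went from 0.05 to 0.32 in T3 against T0, with 7159 higher and 5798 lower calls, and from 0.18 to 0.51 in T5 against T0, with 7144 and 5626 against 4229 and 7184. For T5 against T3, where 411 genes were higher and 284 lower, the counts were 268 and 255 with DESeq2's size factors, 446 and 456 with upper quartile factors, 334 and 688 with DESeq2, 695 and 518 with no filter, 923 and 1199 with 4 T5 libraries and 1348 and 1645 with 2 groups. Without T0 replicate 1 they were 796 and 643, and without T0 replicate 3 they were 922 and 1581. Without letter A they were 165 and 59, and without letter B 143 and 41. Without T0 replicate 3 there were 7080 higher in T3 and 8280 in T5 than in T0. Without letter A the T5 against T0 calls were 2667 and 4844, and without letter B 2531 and 4861. Depth limits Ptx3 in T0 (3 to 28 counts) and Has2 (48 to 202 counts in T0), and n = 2 limits T5.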
